A study of Mus musculus with 81 samples.

Results

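The genes described here build and fill the lysosome: 16 encode subunits or accessory proteins of the vacuolar proton pump, 5 encode other proteins of the lysosomal membrane and 19 encode hydrolases or their helpers. They were chosen by gene symbol, and all 40 were found among the 25124 genes of the deposited count tables. The mRNA was that of microglia, the brain's own macrophages, which were sorted by flow cytometry from adult male C57BL/6 mice. The brains of 2 to 6 mice were pooled for each library. Since no label names the animals, p-values measure the spread between these pooled libraries.

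The lysosome is the acid compartment in which a macrophage breaks down what it has engulfed, in demyelinated brain chiefly myelin lipid and protein. The pump has a membrane sector (V0) that conducts protons and a cytosolic sector (V1) that splits ATP, and the acid it makes lets the hydrolases work. Each hydrolase cuts a particular bond of a lipid, a sugar chain or a protein, and the inherited loss of many of them causes a lysosomal storage disease.

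The 81 libraries formed 28 groups. Baseline mice ate regular diet. The others were fed 0.2% cuprizone, which binds copper and leads to the death of oligodendrocytes and loss of myelin, over the last 4, 5 or 6 weeks. Control mice were wild type (WT) or carried the inducible Cx3cr1CreERT2 driver on 1 allele (labelled Cre here), and no induction step is given in the sources used here. The other genotypes were Trem2KO, whose allele is not described further, and Cx3cr1CreERT2/WT with Mef2afl/fl or Egr2fl/fl (Mef2aKO and Egr2KO), whose Cre controls carried the same driver without the floxed gene. This driver is active in microglia and in other Cx3cr1-expressing myeloid cells. Baseline cells were gated as low for CD44, CD45 and CD11b. Cuprizone cells of WT and Trem2KO mice at 4 weeks and of Cre and Egr2KO mice at 6 weeks were gated on the surface proteins CD229 and CD11c. The gates were negative for both (CD229neg), CD229-positive and CD11c-negative (CD229pos) and positive for both (CD11cpos, with no such group for Trem2KO). Cells of Cre and Mef2aKO mice at 5 weeks were gated also on the lectin receptor Clec7a. They gave triple-negative (Clec7aneg), Clec7a single-positive, Clec7a and CD229 double-positive and triple-positive gates. There were also CD229 gates of baseline Mef2aKO cells and whole Cre and Egr2KO populations at 5 weeks. Most groups had 3 libraries. The Trem2KO gates under cuprizone had 4, and there were 2 libraries each for the whole populations, for Egr2KO at baseline, for the CD229-positive gate of baseline Mef2aKO cells and for Mef2aKO Clec7aneg cells.

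Library totals ran from 4387075 to 13972985 counts. All 6 microglial markers tested were detected in every group, and their summed level ran from 6040 to 11600 CPM (counts scaled to a common library total) over the group means. The 8 markers of border macrophages summed to 11.1 to 303 CPM. The 4 endothelial markers summed to 23.6 to 309 CPM, of which Flt1 gave up to 303 and Pecam1 up to 85.4, while Cldn5 and Ly6c1 were each at 0 in 78 of the 81 libraries. Trem2 counts fell in Trem2KO (106 CPM ± 17.2 against 387 ± 35.1 at baseline). The whole-transcript counts of Mef2a (871 against 984 CPM at baseline) and of Egr2 (81.4 against 111 CPM in CD11cpos cells) did not pass the test in those gates. Mef2a was higher in Mef2aKO than in Cre in Clec7aneg (891 against 812 CPM), single-positive (653 against 635) and double-positive cells (586 against 539). In triple-positive cells it was 578 against 593 CPM. Egr2 was 3.53 against 3.37 CPM at baseline, 10.6 against 19.6 in CD229neg and 32.1 against 51.2 in CD229pos cells. None of these differences passed the test, and which exons the floxed alleles remove is not given in the sources used here. Those groups are therefore called the libraries labelled Mef2aKO or Egr2KO. Egr2 did fall in the whole population (22.4 against 67.0 CPM, log2 fold change −1.61, adjusted p = 3.94e-05).

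Short promoter windows of 6 of the genes are shown first, because they hold a motif that lysosomal genes are known for. CACGTG, read on both strands, is the core bound by basic helix-loop-helix factors. GTCACGTG, which contains it, is part of that motif (the CLEAR element, bound by the TFEB family). RefSeq start sites on GRCm38.p6 gave a 300-base window, 250 bases before to 50 after the start, for 33 of the 40 genes. CACGTG stood in 10 of the 33 (30.3%) against 7.24% of 27025 genes, and GTCACGTG on either strand in 7 (21.2%) against 2.33%. The longer palindrome, GTCACGTG followed by AC, stood in 0 of the 33 against 0.359%. The lines below give 30 bases around GTCACGTG, on the strand of the gene, 5′ to 3′, with the motif in capitals (where it reads CACGTGAC, GTCACGTG lies on the other strand).
Atp6v0b (pump membrane sector), chr4:117887349-117887378, minus strand: tgtgcgcggggGTCACGTGgggtcggcgca
Lamp1 (membrane glycoprotein), chr8:13159122-13159151, plus strand: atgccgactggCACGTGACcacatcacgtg
Mcoln1 (calcium channel), chr8:3500435-3500464, plus strand: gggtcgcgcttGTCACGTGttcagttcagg
Mcoln1, second match, chr8:3500463-3500492, plus strand: ggcgccccgctCACGTGACcgcggcgcatg
Glb1 (beta-galactosidase), chr9:114401017-114401046, plus strand: gctgcttctgaGTCACGTGgcctacagagg
Gla (alpha-galactosidase), chrX:134601183-134601212, minus strand: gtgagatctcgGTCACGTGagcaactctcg
Naglu (N-acetylglucosaminidase), chr11:101070008-101070037, plus strand: ccaaccttcagGTCACGTGgcccgaggtcg

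The match in Gla began 196 bases before its start site, and those in the other 5 genes shown began 28 to 75 bases before. The remaining gene with a match, Atp6v0d1, had it 5 bases before its start, and that window is not shown because it runs into the transcript. The shares of other motifs lay closer to those of all genes. TGANTCA, the AP-1 core, stood in 5 of 33 (15.2% against 7.93%) and in Glb1 overlapped the motif shown. GAGGAAGT, a PU.1 core, stood in 2 (6.06% against 3.28%), the MEF2 motif in 1, Mcoln1 (3.03% against 3.26%), and the EGR core GCGNGGGCG in 3 (9.09% against 5.55%). A match is a description of these letters and not of a factor's binding.

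Levels can be compared between genes only per transcript length, and the deposited TPM values, scaled by transcript length and library total, were used for that. At WT baseline the highest of the 40 were Lgmn, an asparagine-specific protease, at 776 TPM ± 34.0 (SD, n = 3), Psap, the precursor of the saposins that present lipids to hydrolases, at 623 ± 15.1, and Grn, which encodes progranulin, at 506 ± 9.42. Cd68 (410 ± 12.9) and Lamp1 (386 ± 9.64), both heavily glycosylated membrane proteins, followed. The lowest were Galc, which cleaves the myelin lipid galactosylceramide, at 26.6 ± 0.864, Galns, a sulfatase of keratan and chondroitin sulfate, at 16.7 ± 1.94, Gla at 3.68 ± 0.346, and Atp6v0d2 at 0.02. Among the pump genes Atp6v0b had 286 TPM and the ATP-binding subunit Atp6v1a 33.9. Gla, Galns and Atp6v0d2, whose counts moved most across the gates below, were thus the 3 lowest at baseline.

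Atp6v0d2 encodes the d2 form of the V0 subunit d, known from osteoclasts and some macrophages, while Atp6v0d1 encodes the widely expressed form. It is given apart. Its deposited transcript, NM_175406, lies on the minus strand at chr4:19876838-19922566 of GRCm38, and that of Atp6v0d1 at chr8:105524461-105566064, also on the minus strand. No other gene of the RefSeq table overlaps the span of either. In WT cells Atp6v0d2 was near 0 at baseline (0.0983, 0 and 0 CPM), 0.592, 0.563 and 1.78 CPM in CD229neg, 3.09, 3.78 and 3.65 in CD229pos and 22.3, 26.0 and 22.7 in CD11cpos cells. Each gate lay above the one before it, with no overlap.

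**Figure D1:**
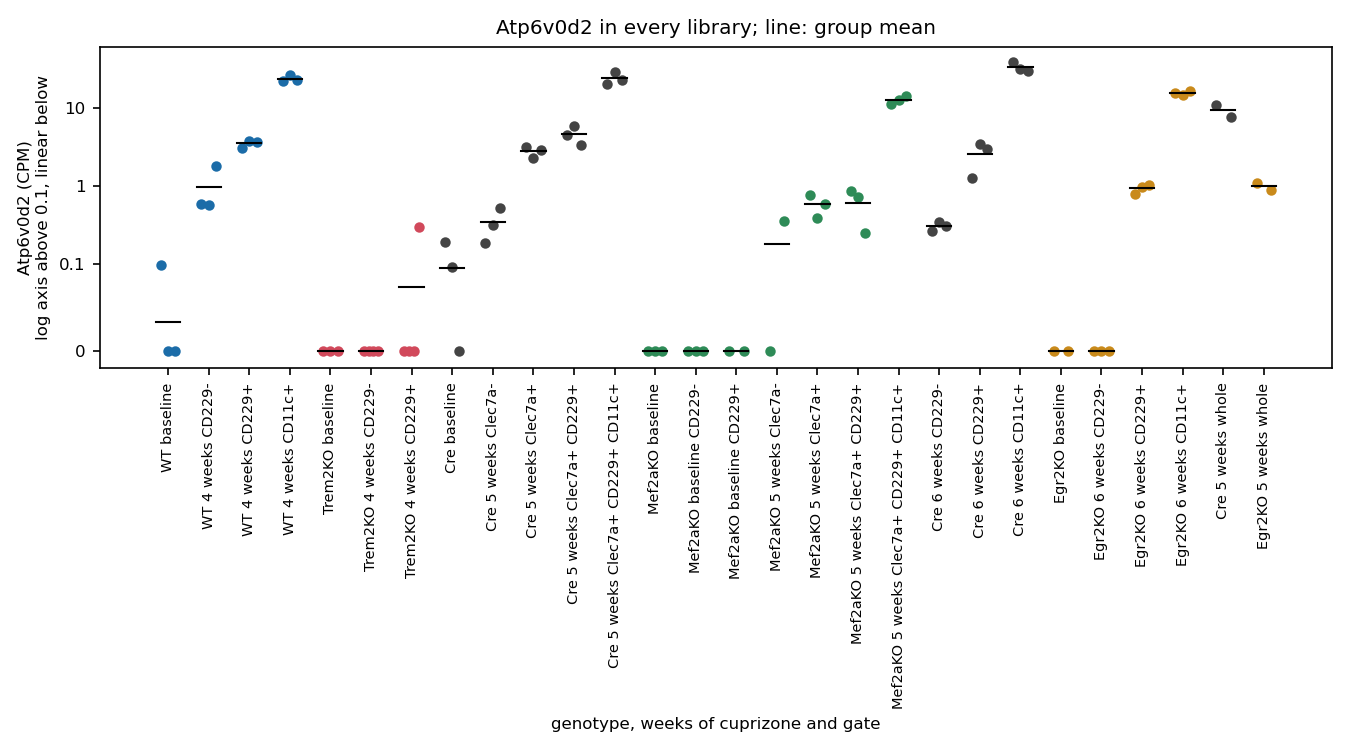
Atp6v0d2 in each of the 81 libraries (points) and the mean of each of the 28 groups (line), in CPM on an axis that is linear near 0 and logarithmic above. Triple-positive and CD11cpos groups lie highest in every genotype that has them, and the Trem2KO libraries lie at 0 except 1.

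The WT diet step rests on 26 reads against 1, a ratio of 31.3 with a 95% exact conditional interval of 5.15 to 1290. That interval covers counting error only (edgeR's quasi-likelihood test, adjusted p = 0.000525). Atp6v0d2 passed the filter on low counts in this fit through the CD229pos and CD11cpos libraries, so this call depends on their being fitted too. The same holds for Trem2KO against WT in CD229neg cells, given below. In other comparisons with a group near 0, Atp6v0d2 likewise passed the filter only through groups where it was high. The CD229 step was 1.84 ± 0.41 (log2 fold change ± SE, adjusted p = 0.000687) and the CD11c step 2.74 ± 0.29 (adjusted p = 5.05e-07). Cre mice gave the same order of gates. Their 5-week libraries read 0.183, 0.318 and 0.528 CPM in Clec7aneg cells, 3.16, 2.25 and 2.85 in Clec7a single-positive cells, 4.48, 5.89 and 3.37 in double-positive cells and 20.4, 29.1 and 22.5 in triple-positive cells. The Clec7a step (3.00 ± 0.45, adjusted p = 2.8e-06) and the CD11c step (2.40 ± 0.23, adjusted p = 8.8e-09) passed the test. Between them, the CD229 step within Clec7a-positive cells did not pass it (ratio of pooled levels 1.61, 95% interval 1.20 to 2.18).

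At 6 weeks the Cre gates read 0.261, 0.347 and 0.304 CPM in CD229neg, 1.27, 3.40 and 2.97 in CD229pos and 38.4, 31.2 and 29.2 in CD11cpos cells. Here both steps passed the test, by 3.02 ± 0.42 for CD229 (adjusted p = 1.72e-05) and 3.66 ± 0.23 for CD11c (adjusted p = 4.47e-10). The diet steps of Cre mice rest on 3 reads at baseline, against 11 at 5 weeks (ratio 3.59, interval 0.948 to 20.0) and 10 at 6 weeks (3.20, 0.823 to 18.1), and neither passed the test.

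All 3 mutant genotypes had less Atp6v0d2. Of the 11 Trem2KO libraries, 10 held no read of it and 1 CD229pos library held 2 (0.294 CPM). Against WT this was at least 11.7-fold lower in CD229neg cells, computed against a floor of 3 counts over the group (0.0842 CPM, adjusted p = 0.000237). In CD229pos cells it was 62.8-fold lower, with an interval of 16.9 to 527 (adjusted p = 6.84e-08). The libraries labelled Mef2aKO read 0.755, 0.388 and 0.591 CPM in Clec7a single-positive cells, 0.867, 0.712 and 0.249 in double-positive cells and 11.1, 12.6 and 14.2 in triple-positive cells. All of these lay below every Cre library of the same gate. The differences were −2.18 ± 0.42 (adjusted p = 0.0013), −2.79 ± 0.38 (6.53e-06) and −0.95 ± 0.21 (0.00447). Border macrophage markers summed to 51.5 CPM (42.2 to 59.6) against 139 (103 to 193) in Cre single-positive libraries, 64.7 (57.6 to 68.4) against 135 (126 to 151) in double-positive and 100 (84 to 124) against 120 (115 to 125) in triple-positive ones, and their part was not tested. In Clec7aneg cells 3 reads stood against 11 (ratio 1.92, interval 0.506 to 10.7), which did not pass the test.

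In the libraries labelled Egr2KO Atp6v0d2 was 0.786, 0.978 and 1.03 CPM in CD229pos cells, −1.41 ± 0.36 against Cre (adjusted p = 0.036), and 15.5, 14.4 and 16.6 in CD11cpos cells (−1.07 ± 0.19, adjusted p = 0.0128). The whole 5-week population read 1.10 and 0.892 CPM against 10.9 and 7.73 in Cre (−3.28 ± 0.35, adjusted p = 0.000228). These 3 falls had no overlap between genotypes, but in the 6-week gates the call was lost in 6 of 13 alternative settings each, with adjusted p up to 0.158 in CD229pos and 0.114 in CD11cpos cells. In CD229neg cells no read stood against 10 in Cre, at least 2.39-fold lower, and this did not pass the test. In bulk libraries of sorted cells, fewer cells that transcribe a gene and less RNA of it per cell cannot be told apart, which holds for every result here.

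Atp6v0d1 moved far less than Atp6v0d2. It was 106, 109 and 119 CPM in WT baseline cells, 114, 118 and 130 in CD229neg, 156, 153 and 153 in CD229pos and 161, 158 and 158 in CD11cpos cells. Baseline and CD229neg overlapped (0.16 ± 0.06, adjusted p = 0.0423, lost in 9 of 12 alternative settings), and the CD229 step did not (0.38, adjusted p = 7.71e-06). The pattern of Atp6v0d2 was compared with that of 13695 genes by Pearson correlation over the 28 group means of log2 CPM (prior count 2). Most like it were Dcstamp (r = 0.986), Alas1 (0.974), Gpr83 (0.966), Klrb1a (0.966), Siglecf (0.964) and Dubr (0.962). Among the other 39 genes the closest were the acid lipase Lipa (0.888) and the V1 subunit Atp6v1b2 (0.884). These are descriptions over groups that share genotypes, gates and libraries.

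The other 39 genes all passed the filter on low counts in the 5 fits, so their counts are of all 39. Over all genes tested, the median log2 fold change lay between −0.02 and 0.03 in the 28 comparisons. The 39 are compared with it below, and with the share of all genes tested that passed the threshold, an adjusted p under 0.05 in edgeR's quasi-likelihood test.

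In WT mice most of these genes were already higher in CD229neg cells at 4 weeks of cuprizone than in baseline cells. Baseline cells here were not split by CD229 or CD11c, so diet and gate differ together, as at every diet step. Of 39, 29 were higher and 1 lower than at baseline, where 18.8% of all genes were higher and 11.7% lower, and the median log2 fold change of the 39 was 0.36. In 27 genes every CD229neg library lay above every baseline library. The share of all genes that separated in this way was not computed, here or at the steps below. All 6 sugar-degrading enzymes were higher, as were 7 of 9 lipid-degrading genes, 3 of 5 V0 genes, 5 of 8 V1 genes, 1 of 2 accessory pump genes, 3 of 5 membrane proteins and all 4 proteases and helpers.

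Gla, which removes terminal galactose from globotriaosylceramide, was 7.27, 7.83 and 6.66 CPM at baseline and 22.3, 22.2 and 42.9 in CD229neg cells. The third CD229neg library was the highest, and it was also the highest for Galns and Atp6v0d2. The change was 2.04 ± 0.22 (adjusted p = 4.22e-08). Galns rose from 29.9, 27.5 and 25.6 CPM to 71.4, 70.2 and 105, with no overlap (1.61 ± 0.12, adjusted p = 3.49e-11). Gusb, the beta-glucuronidase, rose from 255 CPM ± 15.1 to 465 ± 50.2 (0.91 ± 0.09, adjusted p = 3.61e-09). Lamp1, Cd68, Lipa and Galc had smaller values than these 3. Lamp1, a major lysosomal membrane glycoprotein, was 545, 564 and 569 CPM at baseline and 739, 700 and 762 in CD229neg cells (0.43 ± 0.08, adjusted p = 0.000102). Cd68, a membrane protein used as a marker of phagocytic macrophages, rose from 332 CPM ± 14.3 to 458 ± 30.2 (0.51 ± 0.09, adjusted p = 4.89e-05). Lipa, the acid lipase that frees cholesterol from its esters, rose from 190 ± 15.2 to 249 ± 1.39 (0.43 ± 0.06, adjusted p = 6.64e-06), and Galc from 66.1 ± 2.76 to 93.6 ± 13.3 (0.54 ± 0.07, adjusted p = 1.59e-06). Smpd1, the acid sphingomyelinase, was the 1 gene that fell: it was 83.1, 92.2 and 88.8 CPM at baseline and 72.5, 78.1 and 76.6 in CD229neg cells (−0.17 ± 0.06, adjusted p = 0.0232, lost in 4 of 12 alternative settings).

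**Figure D2:**
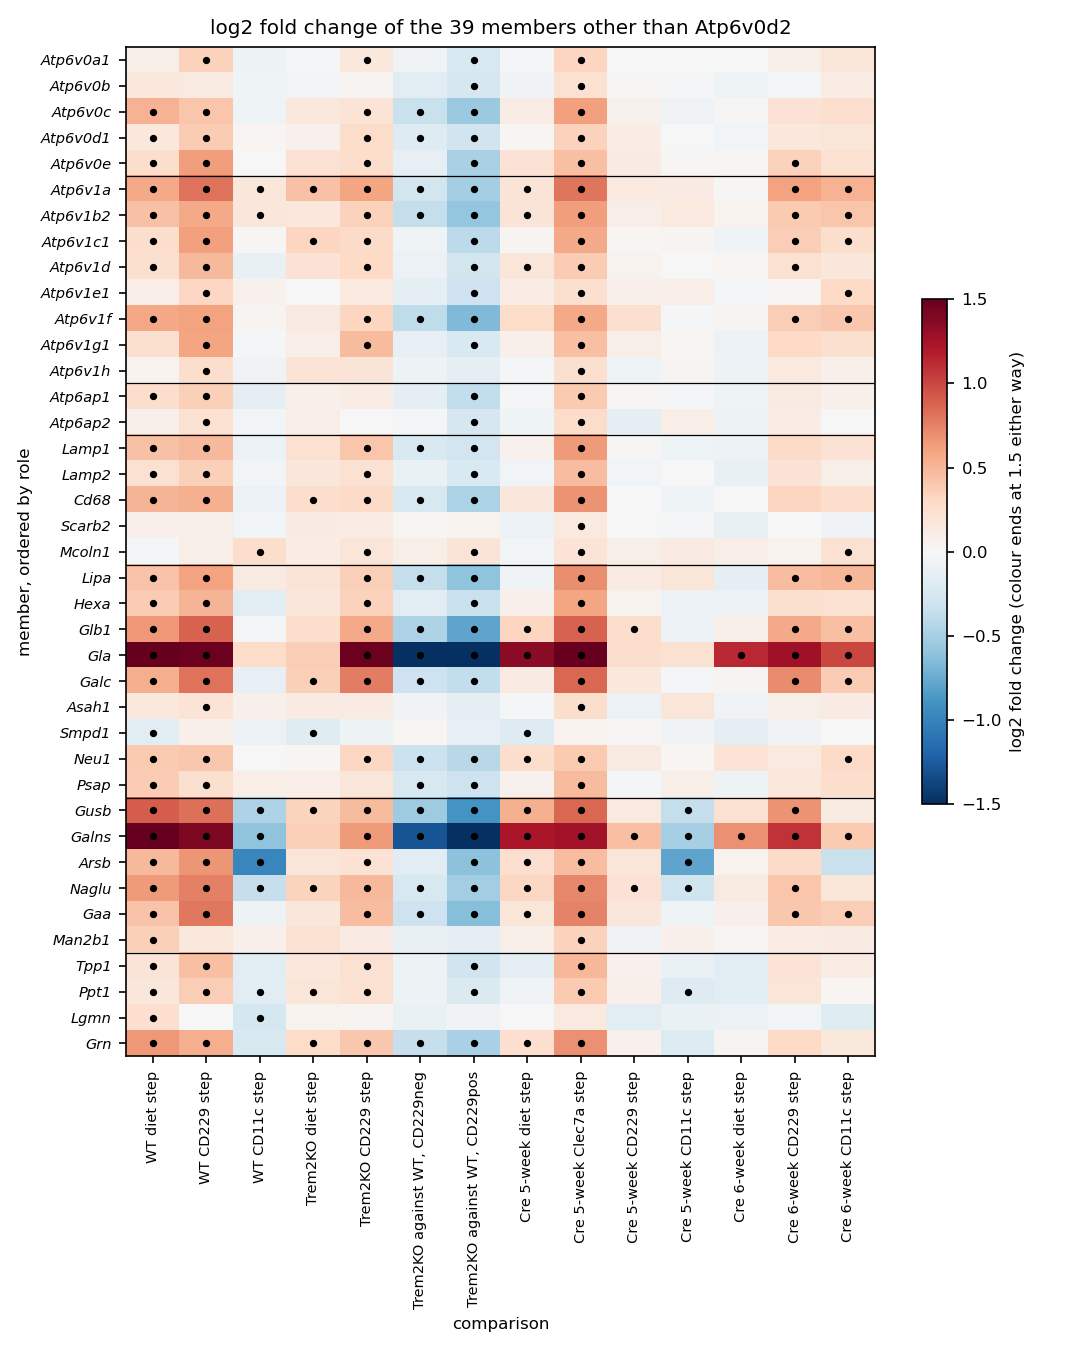
Log2 fold change (colour, ending at 1.5 in either direction) of the 39 genes other than Atp6v0d2, ordered by role, in 14 comparisons, with a dot where edgeR's adjusted p was under 0.05. The WT CD229 step and the Cre Clec7a step are red in nearly every gene, the Trem2KO comparison of CD229pos cells is blue in nearly every gene, and Galns and Gla have the strongest colours.

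The CD229 step of WT mice raised 33 of the 39 genes and lowered none, where 24.6% of all genes were higher and 24.2% lower. The median was 0.48, and in all 33 the CD229pos libraries lay above the CD229neg libraries, a count for which the share of all genes was not computed. All 8 V1 genes and both accessory pump genes rose, with 4 of 5 V0 genes, 3 of 5 membrane proteins, 8 of 9 lipid-degrading genes, 5 of 6 sugar-degrading enzymes and 3 of 4 proteases and helpers. Gla rose to 69.8, 80.0 and 88.1 CPM (1.47 ± 0.18, adjusted p = 1.29e-07) and Galns to 214, 213 and 212 (1.40 ± 0.11, adjusted p = 4.82e-11). Glb1, the beta-galactosidase that acts on ganglioside GM1 and on keratan sulfate, rose from 129, 139 and 176 CPM to 265, 279 and 264 (0.89 ± 0.09, adjusted p = 2.19e-09). For these 3 genes the CD229pos libraries stood close together and the third CD229neg library stood above its group, so the step was smallest against that library. Lgmn had the lowest value (−0.01). The endothelial sum was 92.2 CPM (79.3 to 111) in CD229neg and 264 (247 to 277) in CD229pos libraries, against 64.2 (58.2 to 67.7) at baseline, and its part in the diet and CD229 steps was not tested. In every group nearly all of this sum was Flt1 and Pecam1, since no group mean of Cldn5 or Ly6c1 exceeded 0.123 CPM.

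At the CD11c step of WT mice 3 genes (7.69%) were higher and 6 (15.4%) lower, where 11.8% of all genes were higher and 11.5% lower. These shares lay near those of all genes, and the median of the 39 was −0.06. The 3 that rose were the pump subunits Atp6v1a (260 CPM ± 4.79 against 228 ± 6.86, 0.17 ± 0.06, adjusted p = 0.0467) and Atp6v1b2 (330 ± 9.35 against 291 ± 9.94, 0.17 ± 0.06, adjusted p = 0.0414) and the channel Mcoln1. Mcoln1, which releases calcium from the lysosome, was 110, 121 and 108 CPM against 92.9, 91.5 and 95.9, with no overlap (0.26 ± 0.06, adjusted p = 0.00366).

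The 6 that fell were 4 of the 6 sugar-degrading enzymes, the protease Lgmn and the thioesterase Ppt1, which strips palmitate from proteins. Arsb, the sulfatase of dermatan and chondroitin sulfate, was 1253, 1306 and 1217 CPM in CD229pos cells and 582, 596 and 755 in CD11cpos cells. Its CD11cpos values were thus near the 612, 596 and 582 CPM of baseline cells, and the fall was −0.98 ± 0.08 (adjusted p = 2.34e-09). Galns fell to 130, 137 and 160 CPM (−0.60 ± 0.10, adjusted p = 0.000129), and Gusb from 810 ± 53.6 to 595 ± 54.7 (−0.46 ± 0.08, adjusted p = 0.000183). Naglu, which acts on heparan sulfate, fell from 461 CPM ± 2.14 to 366 ± 25.7 (−0.35 ± 0.09, adjusted p = 0.00553). The border macrophage markers summed to 127 CPM (77.1 to 224) in CD229pos and 65 (33.6 to 87.1) in CD11cpos libraries, and their part in this result was not tested. Without WT CD229pos replicate 1, 5 genes passed the test at this step in place of 9. The call of Atp6v1a was lost in 8 of 13 alternative settings (adjusted p up to 0.208) and that of Atp6v1b2 in 7 of 13 (up to 0.274).

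**Figure D3:**
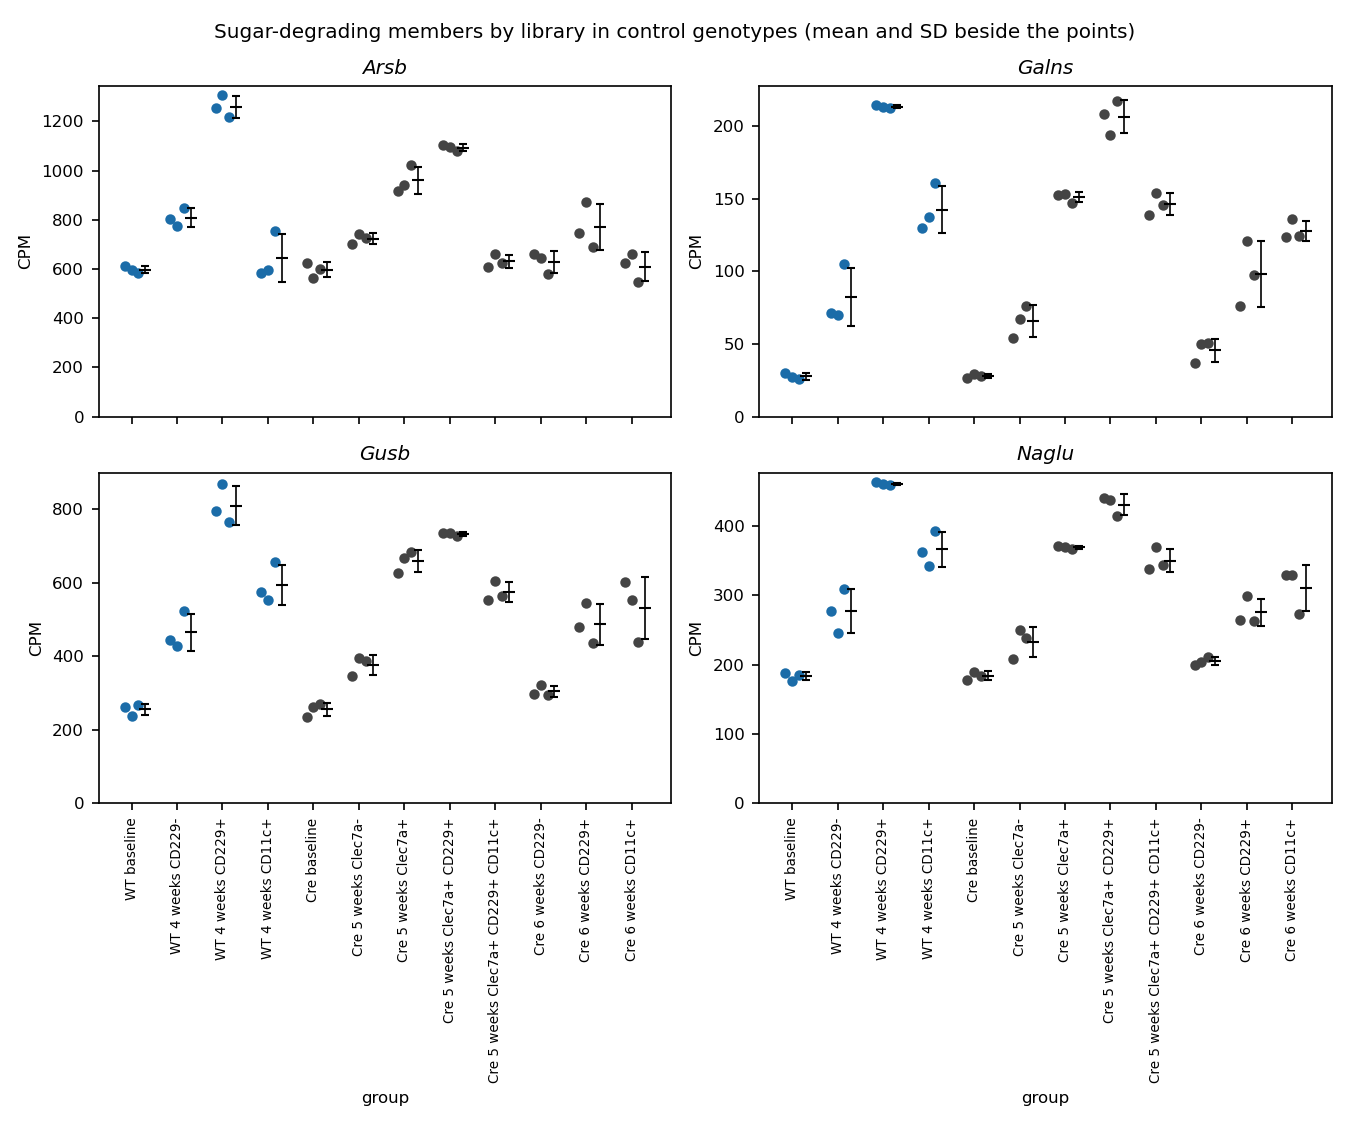
Arsb, Galns, Gusb and Naglu in each WT library at 4 weeks and each Cre library at 5 and 6 weeks, in CPM, by gate from baseline to CD11c-positive cells. At 4 and 5 weeks the mean of each gene is lower in the CD11c-positive gate than in the CD229-positive gate before it.

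In the Cre mice at 5 weeks the diet step was smaller in number: 12 of 39 were higher and 1 lower in Clec7aneg cells than at baseline, where 15.5% of all genes were higher and 13.3% lower, with a median of 0.08. Of the 6 sugar-degrading enzymes 5 were among the 12, and no V0 gene or membrane protein was called. Gla rose from 6.15, 8.92 and 7.54 CPM to 17.3, 19.3 and 21.9 (1.35 ± 0.15, adjusted p = 1.43e-08), and Galns from 26.6, 29.1 and 27.6 to 53.9, 67.3 and 75.9 (1.22 ± 0.08, adjusted p = 2.18e-13). Gusb (0.54 ± 0.08, adjusted p = 3.85e-06) and Glb1 (0.32 ± 0.07, adjusted p = 0.00118) also rose, and Smpd1 fell again, from 89.3 ± 3.07 to 79.0 ± 3.01 (−0.20 ± 0.06, adjusted p = 0.0132). The changes of Lamp1 (0.07, adjusted p = 0.539), Cd68 (0.17, adjusted p = 0.101), Lipa (−0.06, adjusted p = 0.591) and Galc (0.12, adjusted p = 0.22) did not pass the test. The count of genes fell to 7 without Clec7aneg replicate 2 and to 8 without Cre baseline replicate 2. Border macrophage markers summed to 113 CPM (29 to 163) at baseline and 29.1 (22.4 to 33.6) in Clec7aneg libraries, and their part was not tested. Gates differ between 4 and 5 weeks, and the difference between these diet steps was not tested.

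Clec7a marked the larger step. In Clec7a single-positive cells 37 of the 39 genes were higher than in Clec7aneg cells and none lower, where 20.9% of all genes were higher and 17.0% lower, and the median was 0.47. In 36 of them the libraries did not overlap, a count for which the share of all genes was not computed. Every V0, V1, accessory, membrane and sugar-degrading gene passed the test, with 8 of 9 lipid-degrading genes and 3 of 4 proteases and helpers. Gla rose to 57.2, 67.3 and 54.7 CPM (1.67 ± 0.12, adjusted p = 6.48e-13), Galns to 153, 153 and 147 (1.26 ± 0.08, adjusted p = 9.46e-15) and Glb1 from 129 ± 9.05 to 230 ± 3.44 (0.89 ± 0.07, adjusted p = 1.43e-11). Atp6v0d1 rose by 0.35, from 116 to 142 CPM (adjusted p = 0.000225). The border macrophage sum was 139 CPM (103 to 193) against 29.1, none of the 8 markers was at 0, and its part was not tested. Nor was that of the endothelial sum, which was 190 CPM (173 to 209) against 79.2 (74.5 to 87.7). At the next step, CD229 within Clec7a-positive cells, 3 genes were higher and none lower, where 2.10% of all genes were higher and 3.43% lower. These were Galns (206 CPM ± 11.5 against 151 ± 3.48, 0.45 ± 0.07, adjusted p = 0.000133), Glb1 (0.26 ± 0.07, adjusted p = 0.024) and Naglu (0.22 ± 0.07, adjusted p = 0.0438). Their number was 1 without any single one of the 3 Clec7a single-positive libraries or of double-positive replicates 1 and 2.

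The CD11c step at 5 weeks had the same direction for 4 sugar-degrading enzymes as at 4 weeks, in other mice and with other control libraries. Of the 39 genes 5 were lower and none higher, where 7.25% of all genes were lower and 6.85% higher. Arsb fell from 1106, 1096 and 1078 CPM to 610, 659 and 625 (−0.80 ± 0.07, adjusted p = 1.46e-10), so that no triple-positive library came near a double-positive one. Galns (−0.50 ± 0.07, adjusted p = 5.13e-06), Gusb (−0.35 ± 0.08, adjusted p = 0.00183), Naglu (−0.30 ± 0.07, adjusted p = 0.00135) and Ppt1 made up the rest. With only the compared groups fitted, 9 genes passed the test, 3 higher and 6 lower. Border macrophage markers summed to 135 CPM (126 to 151) in double-positive and 120 (115 to 125) in triple-positive libraries, so their ranges did not overlap but their means differed by less than at 4 weeks.

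At 6 weeks the pattern over the gates differed in its numbers. The CD229neg diet step gave 2 higher and 0 lower genes, where 5.03% of all genes were higher and 0.827% lower: Gla, at 11.3, 18.6 and 19.7 CPM (1.13 ± 0.19, adjusted p = 0.000168), and Galns, at 36.5, 49.6 and 50.5 (0.69 ± 0.13, adjusted p = 0.000953). Lamp1 (−0.07, adjusted p = 0.873), Cd68 (−0.01, adjusted p = 0.992), Lipa (−0.13, adjusted p = 0.538) and Galc (0.04, adjusted p = 0.873) did not pass the test. The diet steps of Cre mice at 5 and 6 weeks share the 3 baseline libraries. None of these has a PE150 tag in its title, a tag whose meaning the labels do not give. All 6-week CD229neg libraries of Cre but the first carry it, so diet and tag mostly differ together at this step.

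The 6-week CD229 step raised 14 genes and lowered none, where 10.7% of all genes were higher and 6.54% lower, with a median of 0.23. They were 1 of 5 V0 genes, 5 of 8 V1 genes, 4 of 9 lipid-degrading genes and 4 of 6 sugar-degrading enzymes. Gla rose to 30.1, 48.9 and 43.9 CPM (1.28 ± 0.16, adjusted p = 1.3e-06), Galns to 75.8, 121 and 97.2 (1.09 ± 0.12, adjusted p = 3.85e-07) and Galc from 69.1, 78.8 and 81.9 to 110, 142 and 128 (0.71 ± 0.08, adjusted p = 7e-07). The first library of both gates was the lowest for all 3 genes. In both gates it is also the only library whose title lacks the PE150 tag. Border macrophage markers summed to 303 CPM (159 to 386) against 81.6 (70 to 101), the highest of the 28 groups, and their part was not tested.

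The 6-week CD11c step raised 13 genes and lowered none, where 8.64% of all genes were higher and 8.53% lower, with a median of 0.22. The 13 were 5 of 8 V1 genes, 1 of 5 membrane proteins, 5 of 9 lipid-degrading genes and 2 of 6 sugar-degrading enzymes. The fall of sugar-degrading enzymes at 4 and 5 weeks was thus not seen here. The median of the 6 was 0.16, against −0.4 at 4 weeks and −0.33 at 5 weeks. Gla rose further, to 83.6, 80.3 and 81.1 CPM (1.00 ± 0.14, adjusted p = 9.24e-06). Atp6v1a rose from 165 CPM ± 21.3 to 235 ± 12.3 (0.52 ± 0.08, adjusted p = 4.73e-05) and Lipa from 261 ± 16.9 to 365 ± 38.0 (0.49 ± 0.10, adjusted p = 0.000691). Arsb read 748, 874 and 689 CPM in CD229pos and 623, 660 and 546 in CD11cpos cells, which did not overlap, but its difference of −0.33 did not pass the test. Border macrophage markers summed to 303 CPM (159 to 386) in CD229pos and 124 (54.7 to 248) in CD11cpos libraries, monocyte markers to 25.5 (22.4 to 30.8) and 11.9 (9.47 to 16.7), and endothelial markers to 136 (87.7 to 184) and 266 (243 to 286). Ccr2 alone gave 24.2 CPM of the monocyte sum in CD229pos libraries. The part of these sums in the result was not tested. The count was 21 without CD11cpos replicate 3 and 7 among the libraries whose titles carry a PE150 tag, a setting chosen after seeing the data. Steps at 4, 5 and 6 weeks were fitted in separate experiments, and differences between them were not tested.

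**Figure D4:**
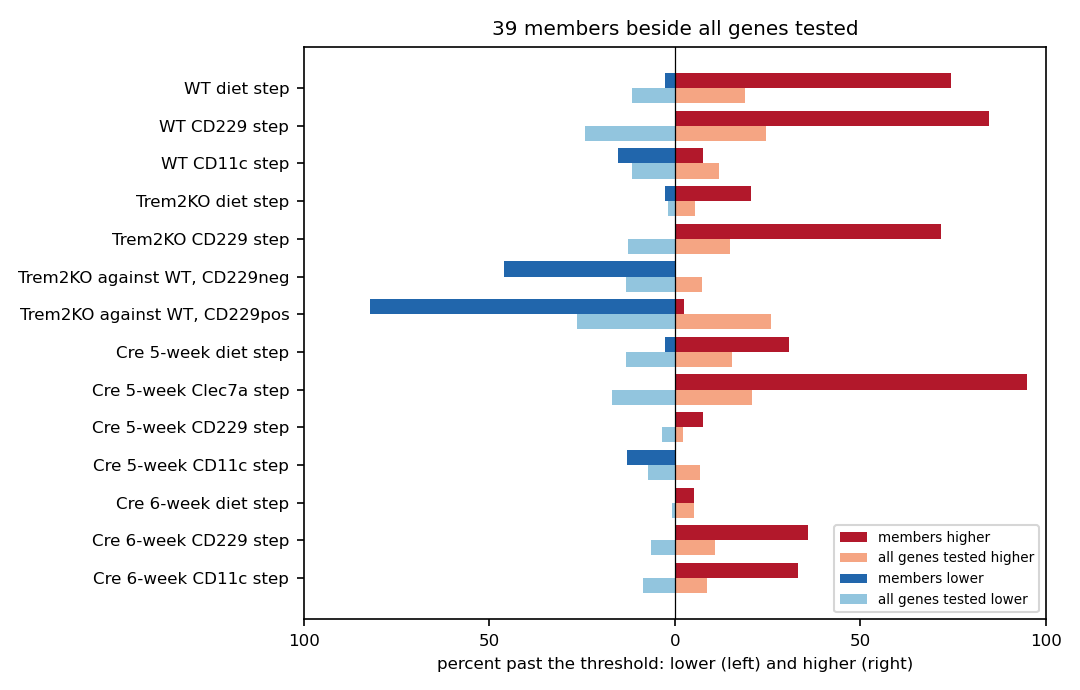
Percent of the 39 genes (excluding Atp6v0d2) and percent of all genes tested that were higher (right) or lower (left) at an adjusted p under 0.05, by comparison. The widest gaps to all genes are in the WT diet and CD229 steps, the Trem2KO CD229 step and the Cre Clec7a step (higher), and in Trem2KO against WT in CD229pos cells (lower).

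Trem2 encodes a lipid-sensing receptor of microglia, and the comparison of Trem2KO with WT asks which of these changes occur without it. At baseline none of the 39 genes passed edgeR's test in either direction (none with DESeq2), where 0.0395% of all genes were higher and 0.538% lower. At an unadjusted p under 0.05, 2 of the 39 were lower, and the share of all genes at that cut was not computed. In CD229neg cells at 4 weeks 18 were lower and none higher than in WT, where 13.1% of all genes were lower and 7.23% higher, with a median of −0.17. Without WT CD229neg replicate 3 the count was 11. In CD229pos cells 32 were lower and 1 higher, where 26.5% were lower and 26.0% higher, with a median of −0.34. The 32 were all 5 V0 genes, 7 of 8 V1 genes, both accessory genes, 3 of 5 membrane proteins, 7 of 9 lipid-degrading genes, 5 of 6 sugar-degrading enzymes and 3 of 4 proteases and helpers.

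Galns showed the largest difference. It was 24.8, 26.0 and 28.6 CPM at Trem2KO baseline, 35.1, 29.9, 35.0 and 36.9 in CD229neg and 55.0, 47.1, 55.9 and 59.0 in CD229pos cells. No Trem2KO cuprizone library reached the lowest WT library of the same gate, and the differences were −1.29 ± 0.11 (adjusted p = 8.45e-10) and −2.05 ± 0.10 (adjusted p = 3.53e-15). Gla was 8.25, 6.13 and 6.32 CPM at baseline, 10.8, 8.79, 8.39 and 7.73 in CD229neg and 21.6, 19.4, 27.4 and 33.9 in CD229pos cells. Of its CD229pos values, 27.4 and 33.9 lay in the range of the WT CD229neg libraries (22.2 to 42.9), and 21.6 and 19.4 lay below it. The differences of Gla from WT were −1.73 ± 0.20 (adjusted p = 2.8e-07) and −1.72 ± 0.17 (adjusted p = 1.85e-09).

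Gusb was lower by −0.54 ± 0.08 in CD229neg (adjusted p = 1.17e-05) and −0.90 ± 0.08 in CD229pos cells (adjusted p = 2.53e-10). Lipa, Cd68, Galc and Lamp1 had smaller differences than Gusb. Lipa was lower by −0.36 (adjusted p = 8.61e-05) and −0.60 (2.29e-09), Cd68 by −0.24 (0.0358) and −0.48 (1.57e-05), Galc by −0.31 (0.0017) and −0.37 (3.05e-05), and Lamp1 by −0.22 (0.031) and −0.29 (0.00144), in CD229neg and CD229pos cells in that order. In CD229neg cells the calls of Cd68 and Lamp1 were each lost in 6 of 12 alternative settings (adjusted p up to 0.204 and 0.136). Lamp1 overlapped between genotypes in CD229pos cells, where 1 Trem2KO library at 973 CPM stood above a WT library at 944. Atp6v0d1 was lower by −0.20 (adjusted p = 0.014) and −0.30 (adjusted p = 5.09e-05). Mcoln1 alone was higher, at 112, 116, 107 and 112 CPM against 92.9, 91.5 and 95.9 in CD229pos cells (0.19 ± 0.06, adjusted p = 0.00971).

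**Figure D5:**
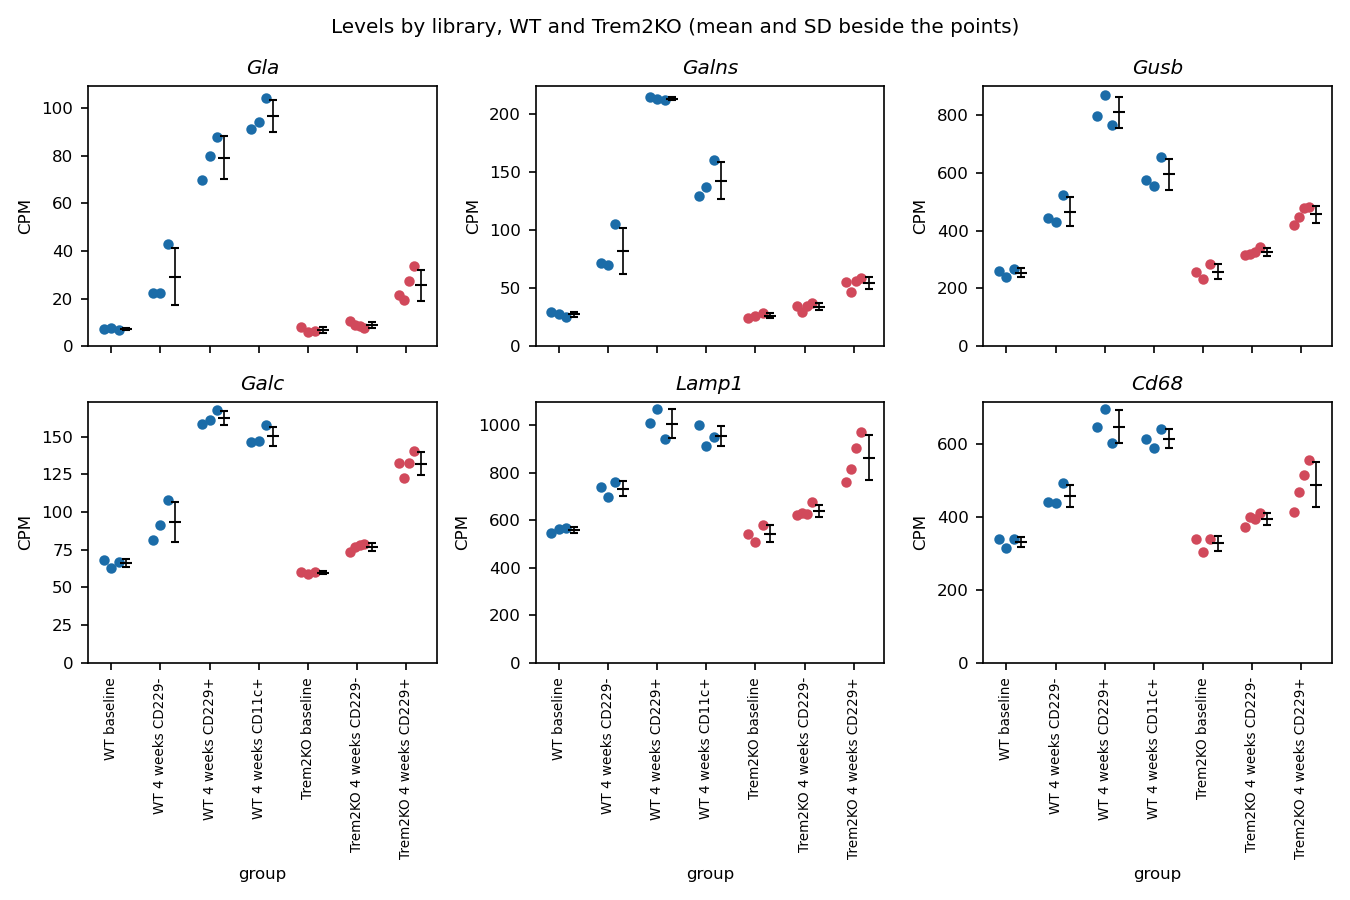
Gla, Galns, Gusb, Galc, Lamp1 and Cd68 in each WT and Trem2KO library, in CPM, with the mean and SD of each group. Groups are baseline and the CD229neg and CD229pos gates at 4 weeks, with the CD11cpos gate for WT only. Genotypes overlap at baseline for Gla, Galns and Gusb, and separate in both cuprizone gates that they share.

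Trem2KO cells still changed along the gates. The CD229 step without Trem2 raised 28 of 39 genes and lowered none, where 14.8% of all genes were higher and 12.7% lower, and its median was 0.27. Gla rose by 1.47 ± 0.19 (adjusted p = 1.11e-06), Galc from 73.4, 76.6, 78.2 and 79.0 CPM to 133, 122, 133 and 141 (0.76 ± 0.06, adjusted p = 4.55e-10), Galns by 0.64 ± 0.11 (3.22e-05) and Atp6v1a from 111 CPM ± 2.05 to 168 ± 4.38 (0.59 ± 0.06, adjusted p = 5.85e-09). Lamp1 rose by 0.41 (adjusted p = 3.05e-05), Lipa by 0.36 (1.35e-05) and Cd68 by 0.29 (0.00417). The border macrophage sum was 24.1 CPM (20.2 to 32) in CD229neg and 97.6 (83.6 to 117) in CD229pos libraries of Trem2KO, and 104 (60.3 to 191) and 127 (77.1 to 224) in those of WT. The endothelial sum was 53 CPM (46.5 to 57.9) and 23.6 (20.2 to 26.9) in these gates of Trem2KO, below the 92.2 and 264 CPM of WT. The part of either sum in these results was not tested.

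The diet step without Trem2 gave 8 higher genes and 1 lower, where 5.42% of all genes were higher and 1.86% lower, with a median of 0.17. Atp6v1a rose from 77.4, 83.0 and 83.3 CPM to 111, 111, 108 and 113 (0.44 ± 0.06, adjusted p = 2.17e-05). Galc (0.36 ± 0.07, adjusted p = 0.00136), Gusb (0.33 ± 0.08, adjusted p = 0.0088), Atp6v1c1, a V1 stalk subunit (0.32 ± 0.06, adjusted p = 0.00142), and Cd68 (0.26, adjusted p = 0.0482) were among the 8. Smpd1 fell here too, from 89.0 CPM ± 3.49 to 78.7 ± 4.01 (−0.18 ± 0.05, adjusted p = 0.0351). The call of Cd68 was lost in 9 of 13 alternative settings (adjusted p up to 0.232) and that of Smpd1 in 7 of 13 (up to 0.17). Lamp1 (0.23, adjusted p = 0.0605) and Lipa (0.19, adjusted p = 0.0563) did not pass the test. The count was 3 without Trem2KO baseline replicate 1 or replicate 2, and 5 without CD229neg replicate 3 or replicate 4.

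The difference between the genotypes' steps was itself tested as an interaction. At the diet step 4 genes responded less in Trem2KO and none more, where 3.17% of all genes had a negative and 0.783% a positive interaction: Gla (−1.67 ± 0.33, adjusted p = 0.00346), Galns (−1.25 ± 0.17, adjusted p = 5.03e-05), Gusb (−0.58 ± 0.12, adjusted p = 0.00383) and the sialidase Neu1 (−0.36 ± 0.09, adjusted p = 0.026). At the CD229 step 8 had a negative interaction and none a positive one, where 5.77% of all genes were negative and 9.02% positive. Galns (−0.76 ± 0.15, adjusted p = 0.000936) and Arsb (−0.45 ± 0.11, adjusted p = 0.0064) led, followed by Atp6v0e, a small V0 subunit (−0.36 ± 0.12, adjusted p = 0.0427), and Gusb (−0.36 ± 0.11, adjusted p = 0.0281). Gla, with a step of 1.47 in each genotype, was not among the 8. These counts were among the least stable: 14 genes passed the CD229 interaction with DESeq2, 3 without WT CD229neg replicate 1 or 2 or WT CD229pos replicate 2, and 4 without WT CD229pos replicate 1, Trem2KO CD229neg replicate 4 or Trem2KO CD229pos replicate 1 or 2. The diet interaction had 7 without Trem2KO baseline replicate 2.

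In the libraries labelled Mef2aKO, which lack a transcription factor of the MEF2 family by design, the 39 genes differed little from Cre. At baseline 1 gene was higher and none lower, where 1.76% of all genes were higher and 2.08% lower. In Clec7aneg cells 2 were lower and none higher (3.91% and 1.62% of all genes), in double-positive cells 1 was lower (2.81%, with 2.09% higher), and in triple-positive cells 1 was higher (2.34%, with 2.35% lower). In Clec7a single-positive cells none passed edgeR's test, where 1.47% of all genes were higher and 2.23% lower. None passed with DESeq2 either. At an unadjusted p under 0.05, 4 of the 39 were higher there, and the share of all genes at that cut was not computed. Galns accounted for 3 of these 5 calls, in both directions. It was 33.7, 34.8 and 35.8 CPM against 26.6, 29.1 and 27.6 at baseline (0.32 ± 0.09, adjusted p = 0.0294), 50.3 and 45.5 against 53.9, 67.3 and 75.9 in Clec7aneg cells (−0.42 ± 0.09, adjusted p = 0.00286) and 157 ± 6.59 against 206 ± 11.5 in double-positive cells (−0.36 ± 0.07, adjusted p = 0.001). In none of these did the groups overlap. Glb1 was lower in Clec7aneg cells (100 CPM ± 8.65 against 129 ± 9.05, −0.33 ± 0.09, adjusted p = 0.0129), and Arsb higher in triple-positive cells (785 ± 54.8 against 631 ± 25.3, 0.29 ± 0.07, adjusted p = 0.00532). The CD229 gates of baseline Mef2aKO cells gave no call (0 with DESeq2), where 0.135% of all genes were higher and 0.0158% lower, with 2 libraries in the positive gate. At an unadjusted p under 0.05 there were also 0, and the share of all genes at that cut was not computed. The single calls at baseline and in triple-positive cells each changed to 1 lower gene when Cre baseline replicate 2 or triple-positive Mef2aKO replicate 2 was left out.

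The libraries labelled Egr2KO differed from Cre in 3 of the 39 genes in 1 gate. In CD229pos cells at 6 weeks Galns (107, 147 and 152 CPM against 75.8, 121 and 97.2, 0.51), Gaa, the acid alpha-glucosidase of glycogen (372 ± 14.0 against 287 ± 21.8, 0.42 ± 0.09, adjusted p = 0.0113), and Glb1 (207 ± 16.0 against 165 ± 14.1, 0.38 ± 0.09, adjusted p = 0.0187) were higher and none was lower, where 1.42% of all genes were higher and 1.05% lower. Galns overlapped between the genotypes. None of the 3 calls held without Cre CD229pos replicate 3 or without Egr2KO CD229pos replicate 2. The border macrophage sum in this gate was 171 CPM (123 to 198) in the libraries labelled Egr2KO and 303 (159 to 386) in Cre, and its part was not tested.

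No other Egr2KO comparison had a call among the 39 with edgeR or DESeq2. At an unadjusted p under 0.05 there was 1 lower at baseline and 10 higher in CD229neg cells. In CD11cpos cells 1 was higher, and in the whole 5-week population 11 were lower. The share of all genes at that unadjusted cut was not computed, so these counts have no comparison. At baseline the Egr2KO titles carry the PE150 tag and the Cre titles do not, so genotype and tag differ together there. Past the adjusted threshold 0.152% of all genes were higher and 0.0303% lower at baseline, and 0.144% and 0.0455% in CD229neg cells. The shares were 0.121% and 0.129% in CD11cpos cells and 0.299% and 0.622% in the whole population. The whole-population count past the adjusted threshold was 10, all lower, without Cre replicate 1. Of the 40 genes, Atp6v0d2 had the largest difference past the threshold in each Egr2KO comparison that had any call.

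Of 45 further lysosomal genes on a second list (other pump isoforms, further hydrolases, sorting and membrane proteins), 40 were expressed enough to be tested. In WT mice 18 were higher and 5 lower at the diet step (18.8% and 11.7% of all genes), 20 and 9 at the CD229 step (24.6% and 24.2%) and 7 and 3 at the CD11c step (11.8% and 11.5%). At the Cre Clec7a step 23 were higher and 4 lower (20.9% and 17.0%). Trem2KO against WT gave 2 higher and 12 lower in CD229neg cells (7.23% and 13.1%) and 12 higher and 19 lower in CD229pos cells (26.0% and 26.5%). The pump isoforms of kidney, testis and inner ear, Atp6v0a4, Atp6v1b1, Atp6v1c2, Atp6v1e2 and Atp6v1g3, were too low to be tested, and Tcirg1, the a3 subunit of osteoclasts, was called once, at the WT diet step (0.17).

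The values of 2 genes of that second list, chosen after they were seen, are given here. Sgsh, the sulfamidase that acts on heparan sulfate beside Naglu, fell in WT mice from 74.8, 69.1 and 62.7 CPM at baseline to 41.4, 35.9 and 41.6 in CD229neg and 7.34, 5.81 and 8.75 in CD229pos cells (−2.39 ± 0.13 at the CD229 step, adjusted p = 9.27e-14). In Trem2KO it was 58.5 CPM ± 3.01 in CD229neg and 48.6 ± 7.53 in CD229pos cells, so that the CD229pos gate differed from WT by 2.64 ± 0.13 (adjusted p = 1.53e-15). In WT mice Sgsh thus fell at both steps at which Naglu rose. The span of Sgsh overlaps that of Card14 over 1891 bases and the span of Igf2r that of Airn, a noncoding RNA, over 28396 bases in the RefSeq table, and whether the counting used strand is not given in the sources used here. Igf2r, the mannose 6-phosphate receptor that carries new hydrolases to the lysosome, was 8.24, 6.39 and 8.44 CPM in WT CD229pos and 53.8, 63.4 and 55.2 in CD11cpos cells (2.88 ± 0.22, adjusted p = 3.09e-10). It was 0.585 ± 0.305 CPM in Trem2KO CD229pos cells (−3.70 ± 0.35 against WT, adjusted p = 1.02e-09).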

How the data were processed

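The authors deposited raw read counts per gene (25124 genes, 1 RefSeq transcript per gene) and TPM values of the same libraries. The submitters' processing notes name HOMER 4.11, STAR 2.7.0f, fastp 0.20.0 and DESeq2, and the genome mm10/GRCm38, without saying what each tool did. Per the labels the libraries were strand-specific (dUTP). Every count was a whole number, and totals ran from 4387075 to 13972985. The chi-square between replicates was 1.55 to 15.4 times that of counting noise (median 4.225 over 80 pairs), so no library was counted as a duplicate, and precision was limited by the spread between libraries more than by depth.

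Genes were joined across the 2 tables of 4-week libraries where the shared WT baseline counts were identical (24910 genes, with 214 left out). R 4.3.3 and edgeR 4.0.16 were used to fit each of 5 experiments (TMM scaling, genes kept by filterByExpr, a mean for every group, quasi-likelihood F tests, Benjamini-Hochberg over all genes tested). These were WT with Trem2KO (23 libraries, 12647 genes, 16 residual degrees of freedom), Cre with Mef2aKO (29, 13204, 19), the baseline gates (11, 12628, 7), Cre with Egr2KO at 6 weeks (23, 13187, 15) and the whole populations (4, 12387, 2). They gave 28 comparisons, of which 2 were interactions. The CPM printed here are scaled by library total alone. The TMM factors, which ran from 0.923 to 1.08, entered the edgeR fits and not these CPM. Printed CPM and fold changes thus rest on different scalings. The 3 Cre baseline libraries serve 3 experiments, the WT baseline libraries serve the WT and Trem2KO comparisons, and Atp6v0d2 was too low to be tested in the baseline gates. The TPM tables keep another transcript than the count tables for 9 members, Galns, Psap and Atp6v1a among them.

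The members and lists were chosen with earlier results of these data known. Named were Atp6v0d2 and Atp6v0d1, up to 4 members per direction and comparison with the largest fold change past the threshold and no overlap of libraries, and Lamp1, Cd68, Lipa and Galc for diet and Trem2KO comparisons. Other members are named where a count is listed in full. Marker lists covered microglia, border macrophages, dendritic cells, B cells, T and NK cells, monocytes, neutrophils, endothelium, neurons, astrocytes and oligodendrocytes. Ly6c2, a monocyte gene, was at 0 in 71 of 81 libraries, and Cldn5 and Ly6c1, of endothelium, in 78, while Ccr2 (monocytes, 5.53 to 24.2 CPM over the group means), Flt1 and Pecam1 (endothelium) were detected in all 81.

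Same-numbered libraries were checked for pairing by their residuals, and every pair's correlation exceeded 0.1 in 1 comparison, the CD229 step at 6 weeks (0.168 to 0.282). Alternatives were DESeq2 1.42.0, its size factors in edgeR, fits of the compared groups alone, no filter, each table alone, replicate blocks, a covariate for the PE150 tag of 17 titles (whose meaning the labels do not give), and each library left out. The test was tried on simulated counts: for the WT diet step (12467 genes) it recovered 56 of 100 genes changed 1.5-fold and 80 of 100 changed 2-fold, with 6 false calls. Of the 40 members, 14 overlap another gene of the RefSeq table and 6 a protein-coding one (Asah1 with Frg1 and Glb1 with Tmppe over most of a gene). Whether the counting used strand is not given in the sources used here, so their counts may hold reads of the neighbour.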

Additional observations from a re-analysis of the deposited data

Results flagged for a closer look

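In 12 cases the step of a gene differed between Trem2KO and WT by edgeR's interaction test, each time with the lower value in Trem2KO. At the diet step these were Gla (log2 difference −1.67), Galns (−1.25), Gusb (−0.58) and Neu1 (−0.36). At the CD229 step they were Galns (−0.76), Arsb (−0.45), Atp6v0e (−0.36), Gusb (−0.36), Atp6v1c1 (−0.33), Gaa (−0.33), Lipa (−0.25) and Atp6ap2 (−0.23). Neu1 shows the difference in single libraries: WT rose from 80.2, 80.1 and 91.1 CPM to 105, 103 and 113, while Trem2KO CD229neg libraries (94.0, 88.7, 78.2 and 88.1) overlapped their baseline (85.6, 80.6 and 87.9).

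Single libraries stood apart from the rest of their group in 2 of 79 gene and group pairs with 4 libraries, where chance flags about 1 in 20. Glb1 was 99.6 CPM in Trem2KO CD229neg replicate 2 and 112 to 113 in the other 3, a gap of 0.895 of the group's range. Atp6v0d2 was 0.294 CPM in Trem2KO CD229pos replicate 4 and 0 in the other 3, a gap of 1 of the range that rests on 2 reads.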

How the results depend on the processing

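The counts of the 39 genes past the threshold moved by no more than 1.5 times under the alternatives except as follows. With DESeq2, 14 passed the CD229 interaction in place of 8, 3 the Mef2aKO baseline comparison in place of 1, 4 the Clec7aneg one in place of 2 and 2 the triple-positive one in place of 1. With DESeq2's size factors in edgeR these were 14 for the CD229 interaction and 2 at Mef2aKO baseline. Without a filter, 8 passed the diet interaction in place of 4, 3, 5 and 2 the Mef2aKO baseline, Clec7aneg and double-positive comparisons, and 1, 7, 1 and 2 the Egr2KO CD229neg, CD229pos, CD11cpos and whole-population ones (0, 3, 0 and 0 with the filter). With only the compared groups, 9 passed the 5-week CD11c step in place of 5, and 0, 4, 2 and 1 the Mef2aKO baseline, Clec7aneg, double-positive and Egr2KO CD11cpos comparisons. With a replicate block, 12 passed the diet interaction, 14 the CD229 interaction and 3 the Mef2aKO baseline comparison. The block changed no other count by more than 1.5 times, the 6-week CD229 step included, where the numbers paired. The PE150-only setting, chosen after seeing the data, gave 7 at the 6-week CD11c step in place of 13. Leaving out 1 library at a time gave 5 to 10 at the WT CD11c step, 3 to 9 at the Trem2KO diet step, 11 to 18 for Trem2KO against WT in CD229neg cells, 3 to 7 and 3 to 12 for the interactions, 7 to 15 and 1 to 3 at the 5-week diet and CD229 steps, 9 to 21 at the 6-week CD11c step, 0 to 1, 1 to 4 and 1 to 1 for Mef2aKO at baseline, Clec7aneg and triple-positive, and 0 to 4 and 0 to 10 for Egr2KO in CD229pos cells and whole populations. The call turned from higher to lower at Mef2aKO baseline without Cre baseline replicate 2 and in triple-positive cells without Mef2aKO replicate 2 (1 gene each). Whole populations gave 10 lower without Cre replicate 1. Atp6v0d2 in triple-positive Mef2aKO cells lost its call in 1 of 11 alternatives (adjusted p = 0.0806). Of the values of the 40 genes that were rerun, none past the threshold changed sign under an alternative. Among those short of it, Lipa at the 5-week diet step (−0.06) ran from −0.12 to 0.01, and at the 6-week diet step Cd68 (−0.01) ran from −0.15 to 0.17 and Lamp1 (−0.07) from −0.20 to 0.10. The cause of these differences was not tested. With 2 to 4 pooled libraries a group, changes under 1.5-fold are often missed.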

Other observations

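Summed over the 39 genes other than Atp6v0d2, the WT gates held 10520 CPM at baseline, 13130 in CD229neg, 17350 in CD229pos and 15960 in CD11cpos cells. Trem2KO held 10450, 11720 and 14110 CPM over its 3 groups. Cre mice at 5 weeks held 11510, 15550, 16100 and 15200 CPM over the 4 gates, from 10690 at baseline, and at 6 weeks 10630, 12520 and 13770. The sum was thus highest in the CD229-positive, CD11c-negative gate at 4 and 5 weeks and in the CD11cpos gate at 6 weeks. No test was made of these sums.

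Calls per gene were uneven. Over the 28 comparisons Galns was higher in 11 and lower in 8, and Glb1 and Atp6v1a were each higher in 9. Smpd1 was called 3 times, each time lower. Scarb2, the receptor that brings glucocerebrosidase to the lysosome, was called once, and Asah1, the acid ceramidase, and Man2b1, the alpha-mannosidase, 2 times each.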
